A study of Mus musculus with 18 samples.

Results

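The genes described here are 10 members of the insulin-like growth factor (IGF) axis of the mouse, namely Igf1, Igf1r, Insr, Irs2, Igfbp2, Igfbp3, Igfbp4, Igfbp5, Igfbp6 and Igfbp7. They were listed by gene symbol, with earlier results of these data known, and they make up 10 of the 30172 genes in the deposited tables. Counts of members set beside shares of all genes are therefore a description. RNA was taken from whole ovaries of wild type C57BL/6J F1 females at postnatal day 3 (Pd3), 7 (Pd7) or 21 (Pd21), and poly-A RNA was sequenced. In the F1-HHcy groups the dams had eaten a diet with 3% methionine, which is used to raise blood homocysteine (hyperhomocysteinemia, HHcy), and in the F1-Control groups they had eaten normal chow. By the labels both diets were given from 4 weeks before mating until the end of lactation, and the F1 females themselves were not treated. Each of the 6 groups of diet and day held 3 libraries, 18 in all. Pd3 and Pd7 are labelled batch 1 and Pd21 batch 2, so the diets were compared within a batch, whereas age and batch cannot be told apart wherever Pd21 is set against another day. Neither the labels nor the methods say whether a library held 1 pup or several, or which pups shared a dam, so the p-values measure only the spread between these libraries, which may be technical.

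IGF1 is a secreted growth factor that signals through its receptor IGF1R, a tyrosine kinase closely related to the insulin receptor INSR. Both receptors hand the signal to adaptor proteins such as IRS2, which switch on the PI3K-AKT branch. Outside the cell IGFs are held by the IGF binding proteins, which prolong their life and limit or favour their access to the receptor, and IGFBP7 is a distant relative that binds IGFs only weakly. In the rodent ovary Igf1 is known as a product of granulosa cells of growing follicles, where it raises the response to follicle-stimulating hormone, and IGFBP4 and IGFBP5 are known from follicles undergoing atresia.

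Levels are the deposited values, read as FPKM, the fragments counted on a gene after division by the gene's length and the library's depth, which allows levels to be compared between genes. Between 33630641 and 39399281 fragments were counted per library, and the members received from 519 fragments (the lowest Irs2 library) to 107670 fragments (the highest Igfbp5 library). Defining ovarian markers were present in all 18 libraries, with Gdf9 of oocytes at 33.5 to 549.9 FPKM and Foxl2 of granulosa cells at 45.7 to 195 FPKM. A few libraries stood apart. In F1-HHcy Pd3 replicate 3 the summed FPKM of 8 theca markers was 89.4, against 719 and 371 in the other libraries of its group. The F1-Control Pd3 libraries had sums of 107 to 162, so this replicate was nearer to them than to its own group. In F1-Control Pd7 replicate 2 the median log2 level of genes of 8000 bases or more, relative to that of genes of 2000 bases or less and centred on the libraries of the day, was -0.72, against -0.16 to 0.26 in the other 17 libraries. The F1-Control Pd21 libraries held RNA of oviduct epithelium although they are labelled whole ovary, with Ovgp1 at 37.5 to 365 FPKM and Foxj1 at 20.4 to 99.1 FPKM, against 0.370 to 2.10 and 0.248 to 0.441 FPKM in F1-HHcy Pd21. In bulk ovary, fewer cells of a type and less RNA per cell cannot be told apart.

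The binding proteins were the abundant part of the axis. Igfbp5 had the highest mean level of the 10 genes in 5 of the 6 groups, from 282 ± 10.8 FPKM (SD, n = 3) in F1-Control Pd3 to 436 ± 36.4 FPKM in F1-HHcy Pd3. In F1-HHcy Pd21 it averaged 189 ± 110.0 FPKM and Igfbp7 came first with 326 ± 21.3 FPKM, and the library ranges of the 2 genes did not overlap there. In the Pd7 groups and in F1-Control Pd21 the ranges of Igfbp5 and Igfbp7 overlapped. Igfbp4, Igfbp6 and Igfbp2 took ranks 3 to 5 in all groups other than F1-Control Pd3, where Igfbp2 was 2nd, Igfbp4 3rd, Igfbp7 4th and Igfbp6 5th. Igf1, Igf1r and Igfbp3 lay between 4.41 and 39.3 FPKM in single libraries. Insr ranked 8th or 9th and Irs2 last in every group, and between Insr and Irs2 the library ranges were apart in F1-Control Pd3, F1-HHcy Pd7 and both Pd21 groups but overlapped in F1-HHcy Pd3 and F1-Control Pd7.

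**Figure D1:**
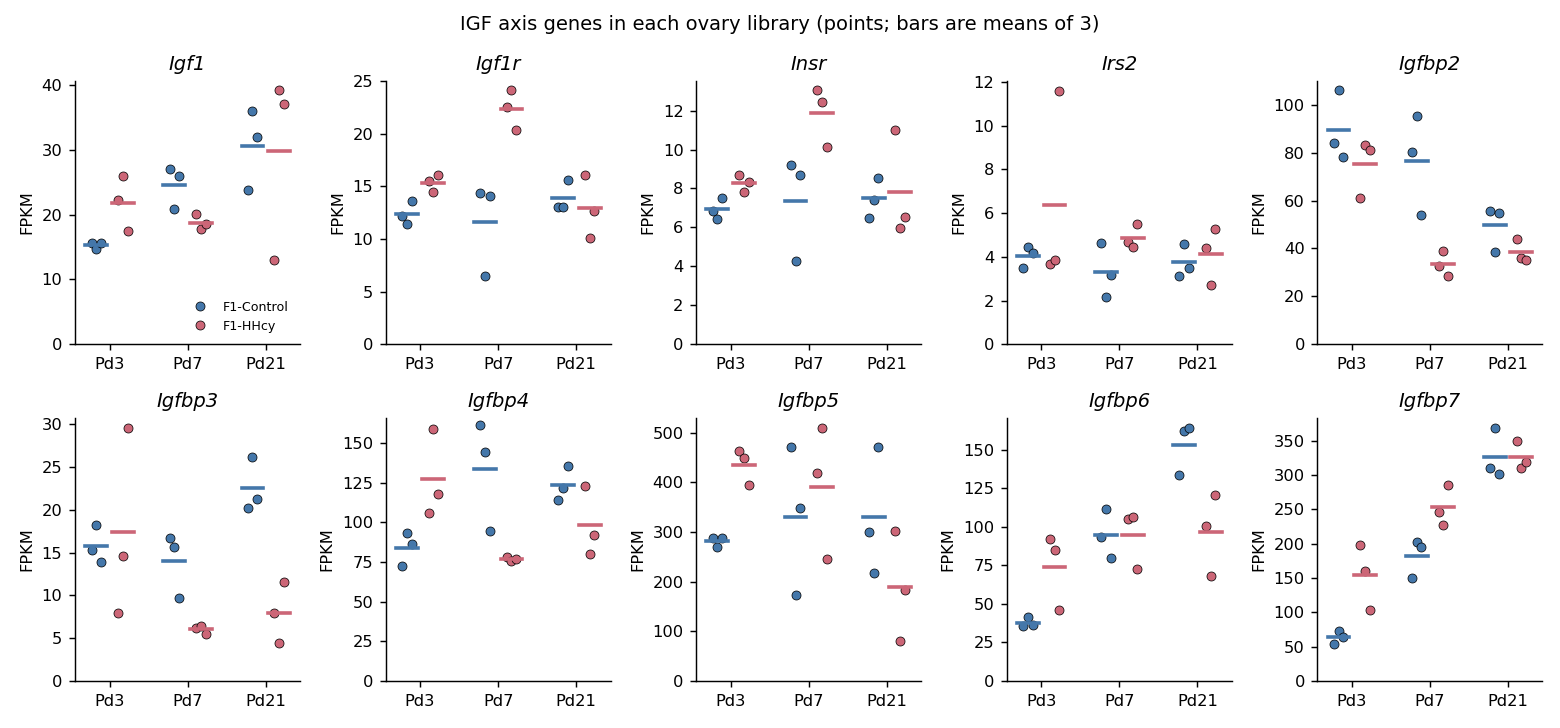
Level of each of the 10 genes (FPKM, linear axis from 0) in every library, by day on the horizontal axis and by diet of the dam (F1-Control blue, F1-HHcy red); points are single libraries and bars are means of 3. Igfbp2, Igfbp3 and Igfbp4 of the 3 F1-HHcy Pd7 libraries all lie below the 3 F1-Control Pd7 libraries, and Igf1r and Insr all lie above them.

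The first question was whether the diet of the dam changed the axis at each day. Differences between the diets were tested per day with limma on log2(FPKM + 1), and a gene met the criterion where its log2 fold change exceeded 0.58 in either direction with an unadjusted p below 0.05, the limits of the study's volcano plots. Adjusted p-values (Benjamini-Hochberg, over all genes tested that day) are given beside it, and "rose" and "fell" are kept for an adjusted p under 0.05. All 10 members passed the filter on low values, which kept genes of at least 1 FPKM in at least 3 libraries. Without that filter no member had an adjusted p under 0.05 between the diets, with the lowest at 0.116 on Pd3, 0.0748 on Pd7 and 0.193 on Pd21. For any 1 gene, 3 libraries against 3 allow no 2-sided p under 0.1 in an exact permutation test.

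At Pd3 the axis leaned upward in F1-HHcy ovaries. Igfbp5 and Igfbp7 rose, Igfbp4 and Igfbp6 also met the criterion, and no member met it in the lower direction. These 4 of 10 members stand against 9.74% of the 13277 genes tested that met the criterion, 5.0% in the higher and 4.74% in the lower direction. An adjusted p under 0.05 was reached by 2 members and 3.07% of all genes. The ranges of the diets were apart for 7 members, against 27.9% of all genes. The median log2 fold change of the members was 0.43, and that of all genes tested was -0.03.

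At Pd7 the axis moved in both directions. Igf1r rose and Insr met the criterion in the higher direction, whereas Igfbp2, Igfbp3 and Igfbp4 fell. The criterion was met by 2 members in the higher direction, against 9.06% of the 13299 genes tested, and by 3 in the lower, against 7.35% (5 members and 16.4% in all). An adjusted p under 0.05 was reached by 4 members and 11.9% of all genes. Igfbp4 lost it with median-ratio scaling (limma adjusted p = 0.0518), Igf1r with limma-voom on fragments (limma adjusted p = 0.0525) and Igfbp3 in the model of all 18 libraries (limma adjusted p = 0.0539). Groups did not overlap for 7 members and for 39.0% of all genes. The median log2 fold change was 0.14 over the members and -0.0015 over all genes.

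At Pd21 only the lower direction was represented. Igfbp3 fell, Igfbp6 met the criterion in the lower direction, and no member met it in the higher direction. The criterion was met in the lower direction by 2 of 10 members and by 5.06% of the 13350 genes tested, and in the higher direction by 0.0824% (5.14% in all). An adjusted p under 0.05 was reached by 1 member and 2.23% of all genes. The same 2 members were those whose groups did not overlap, against 10.5% of all genes, and the median log2 fold change was -0.26 over the members and -0.01 over all genes.

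**Figure D2:**
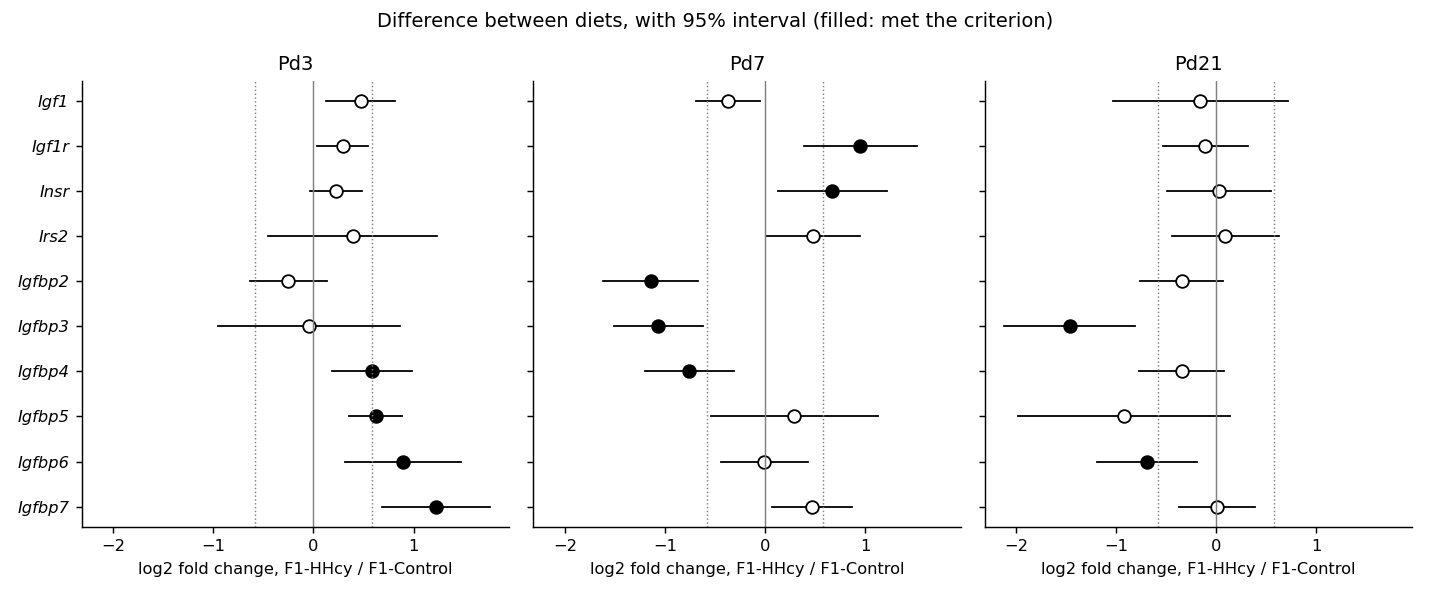
Log2 fold change of F1-HHcy over F1-Control for each gene at Pd3, Pd7 and Pd21 (horizontal axis, log2 scale of FPKM + 1), with lines for the 95% interval of the limma fit; filled points met the criterion, the solid line marks 0 and the dotted lines mark 0.58 in either direction. Igfbp4 to Igfbp7 have filled points to the right at Pd3, Igfbp2 to Igfbp4 have filled points to the left at Pd7, and Igfbp3 and Igfbp6 have filled points to the left at Pd21.

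Igf1, the ligand, did not meet the criterion on any day. At Pd3 it was measured at 15.6, 14.7 and 15.6 FPKM in F1-Control and at 22.2, 25.9 and 17.4 FPKM in F1-HHcy. All F1-HHcy libraries were above all F1-Control libraries, with a log2 fold change of 0.47 (95% interval 0.13 to 0.81, limma adjusted p = 0.125). Without F1-HHcy Pd3 replicate 3 the difference was 0.62 (limma adjusted p = 0.00857) and met the criterion. In that fit 1219 genes were higher and 1605 lower at an adjusted p under 0.05 in limma, against 218 and 190 with all libraries. At Pd7 the order was the opposite, with 27.0, 20.9 and 26.0 FPKM in F1-Control and 20.0, 17.7 and 18.5 FPKM in F1-HHcy. These groups did not overlap either, and the log2 fold change was -0.37 (95% interval -0.69 to -0.04, limma adjusted p = 0.120). At Pd21 the F1-Control libraries gave 23.8, 36.0 and 31.9 FPKM and the F1-HHcy libraries 13.0, 39.3 and 37.1 FPKM. F1-HHcy replicate 1 was the lowest of all libraries of that day and the other F1-HHcy libraries were the highest, so the mean difference of -0.16 on the log2 scale turned to 0.33 without that replicate.

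The receptor genes Igf1r and Insr were higher in F1-HHcy at Pd3 and Pd7 without overlap. At Pd3 Igf1r was at 12.2, 11.4 and 13.6 FPKM in F1-Control and at 15.5, 14.4 and 16.1 FPKM in F1-HHcy, a log2 fold change of 0.29 (limma adjusted p = 0.178). At Pd7 Igf1r was at 14.4, 6.53 and 14.1 FPKM in F1-Control and at 22.5, 24.1 and 20.4 FPKM in F1-HHcy. The log2 fold change was 0.95 ± 0.25 (SE, limma adjusted p = 0.0398), with all 3 F1-HHcy libraries above every other library of the series. Insr at Pd7 was at 9.18, 4.26 and 8.69 FPKM in F1-Control and at 13.1, 12.4 and 10.1 FPKM in F1-HHcy, a log2 fold change of 0.67 (limma adjusted p = 0.0968). For both genes F1-Control replicate 2 was the lowest library of all 18. Without it the Igf1r difference at Pd7 was 0.61 (limma adjusted p = 0.0364) and the Insr difference was 0.37 (limma adjusted p = 0.151), which no longer met the criterion. Insr also missed it without F1-HHcy Pd7 replicate 1 (0.60), and the limma adjusted p of Igf1r exceeded 0.05 without any one F1-HHcy Pd7 library (0.0848 to 0.116). At Pd21 the receptor genes overlapped between the diets, with log2 fold changes of -0.11 (95% interval -0.54 to 0.31) for Igf1r and 0.02 (95% interval -0.50 to 0.54) for Insr.

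Gene length moved with these receptor values. Igf1r and Insr are long genes, counted over 12973 and 9423 bases. In the 3 F1-HHcy Pd7 libraries the level of long against short genes, defined as above, was 0.20, 0.22 and 0.21, against 0.07, -0.72 and -0.0037 in the F1-Control Pd7 libraries. Over the 1703 genes of 8000 bases or more the median log2 fold change at Pd7 was 0.21, and 13.4% met the criterion in the higher direction, against 8.16% of the 3246 genes of 2000 bases or less. Of these long genes 96.5% had a lower log2 fold change than Igf1r, 89.7% a lower one than Insr and 4.64% a lower one than Igf1. Without F1-Control Pd7 replicate 2 the median of the long genes was 0.06 and that of the short genes was -0.12. The shares of long genes below Igf1r, Insr and Igf1 were then 95.2%, 87.2% and 4.17%. With all libraries the short genes had a median of -0.21. Of the short genes 15.4% met the criterion in the lower direction, against 2.06% of the long genes. Igfbp2, which fell that day, is counted over 1721 bases, and Igfbp7, which was higher in F1-HHcy, over 1213 bases. The part of gene length in the values of these genes was not tested. Igf1, counted over 8592 bases, was lower in F1-HHcy on the same day.

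Levels of the receptor genes kept close to each other across the series. The ratio of Igf1r to Insr in FPKM lay between 1.47 and 2.02 in all 18 libraries, while Igf1r ranged from 6.53 to 24.1 FPKM and Insr from 4.26 to 13.1 FPKM. Among 14607 genes, Insr was the gene whose log2 profile differed least from that of Igf1r, by a root mean square of 0.12 over the 18 libraries after centring each gene on its mean, and Igf1r was likewise the nearest to Insr. This pair was singled out after its values were seen, and the points share libraries and the difference by gene length described above.

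**Figure D3:**
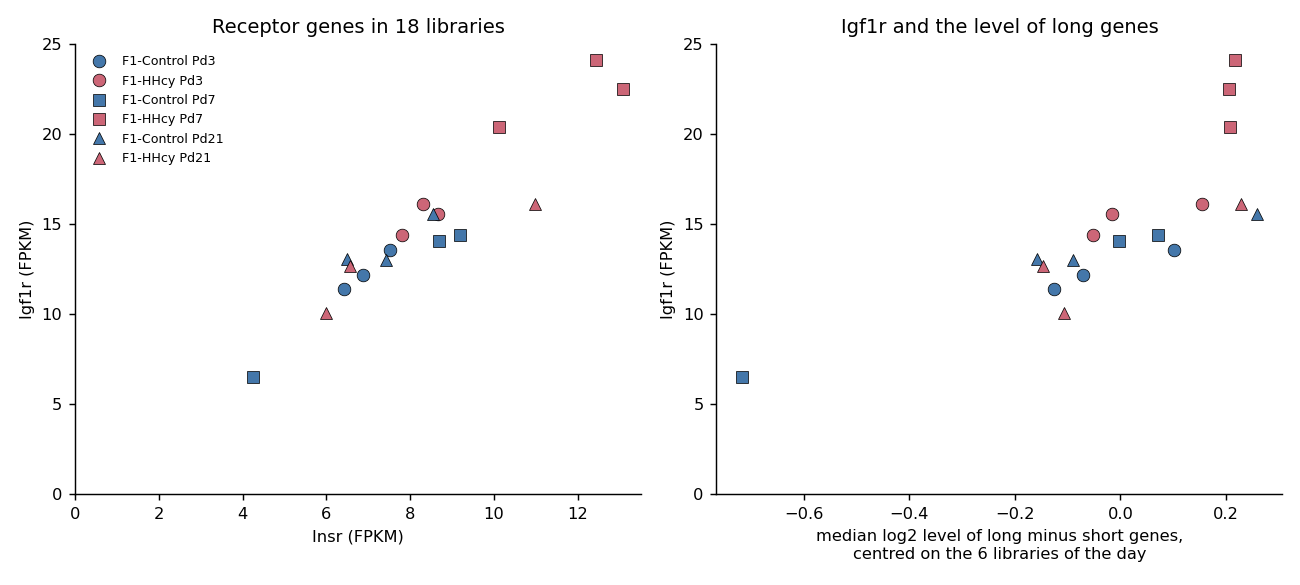
Left, Igf1r against Insr (FPKM, linear axes from 0) in the 18 libraries; right, Igf1r against the level of long relative to short genes (log2, centred on the 6 libraries of a day), with colour for diet and symbol for day. The F1-HHcy Pd7 squares lie highest on both panels, between 20.4 and 24.1 FPKM of Igf1r, and F1-Control Pd7 replicate 2 lies lowest, at 6.53 FPKM and -0.72.

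Irs2, the adaptor, overlapped between the diets on all 3 days. At Pd3 it was at 3.47, 4.44 and 4.15 FPKM in F1-Control and at 3.65, 3.85 and 11.6 FPKM in F1-HHcy. Only replicate 3 of F1-HHcy was high, and the log2 fold change of 0.39 became -0.08 without it. At Pd7 F1-Control was at 4.61, 2.16 and 3.19 FPKM and F1-HHcy at 4.69, 4.43 and 5.49 FPKM, a log2 fold change of 0.48 (95% interval 0.01 to 0.95, limma adjusted p = 0.154). At Pd21 the difference was 0.09 (95% interval -0.44 to 0.62).

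Among the binding proteins, Igfbp7 and Igfbp5 rose at Pd3. Igfbp7 was at 54.5, 73.0 and 63.5 FPKM in F1-Control and at 198, 160.0 and 104 FPKM in F1-HHcy. Every F1-HHcy library lay above the F1-Control range, by a log2 fold change of 1.22 ± 0.23 (SE, limma adjusted p = 0.0403), the largest of the 10 members at that day. Igfbp5, which binds IGFs and the extracellular matrix, was at 289, 269 and 287 FPKM in F1-Control and at 463, 450.0 and 394 FPKM in F1-HHcy. These groups were apart as well, with a log2 fold change of 0.62 ± 0.11 (SE, limma adjusted p = 0.0386), and in the model of all 18 libraries, whose spread includes the other days, it did not pass (limma adjusted p = 0.430).

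Igfbp6, which prefers IGF2 as a ligand, and Igfbp4, an inhibitor of IGF action that proteases such as PAPP-A remove, met the criterion at Pd3 with adjusted p-values above 0.05. Igfbp6 was at 35.5, 41.6 and 36.6 FPKM in F1-Control and at 92.0, 84.8 and 46.0 FPKM in F1-HHcy, a log2 fold change of 0.89 (limma adjusted p = 0.0947). Igfbp4 was at 72.2, 93.4 and 86.3 FPKM in F1-Control and at 106, 159 and 118 FPKM in F1-HHcy, a log2 fold change of 0.58 (limma adjusted p = 0.109). Both were without overlap. Without F1-HHcy replicate 3 the log2 fold changes of Igfbp4, Igfbp5, Igfbp6 and Igfbp7 were 0.63, 0.69, 1.20 and 1.48, and 5 members met the criterion. Over all genes that fit called 920 higher and 1028 lower of 13049 by the criterion. With all libraries 664 and 629 of 13277 met it. Igfbp4 did not meet it without F1-Control replicate 1 (0.48) or F1-HHcy replicate 2 (0.42), and Igfbp5 just missed the size limit without F1-HHcy replicate 1 (0.58). The limma adjusted p of Igfbp5 and Igfbp7 exceeded 0.05 without any one library other than F1-HHcy replicate 3, and ranged up to 0.203 and 0.214.

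Markers of several cell types moved in the same direction at Pd3. The summed FPKM of 9 stroma markers ranged from 843 to 1134 in F1-Control and from 1553 to 1941 in F1-HHcy, and 8 of the 9 genes met the criterion in the higher direction. The sum of 8 endothelium markers ranged from 53.3 to 70.9 and from 80.5 to 123 FPKM, with 5 of 8 genes meeting it. Sums of oocyte markers (1133 to 1344 against 1607 to 2249 FPKM), granulosa markers (288 to 301 against 331 to 610.3 FPKM) and macrophage markers (32.6 to 40.02 against 44.9 to 49.3 FPKM) were also higher in F1-HHcy without overlap. By the criterion 6 of 14 oocyte markers were higher and 3 lower, 5 of the 9 granulosa markers tested were higher, and no macrophage marker was called. The sum of 8 erythroid markers went the other way, from 3945 to 11298.5 FPKM in F1-Control and from 784 to 1108 FPKM in F1-HHcy. The part of these cell types in the Igfbp values was not tested. Scaling the libraries by median ratios in place of the total left the 4 members past the criterion at Pd3.

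Igfbp2 and Igfbp3 did not meet the criterion at Pd3 and overlapped between the diets. Igfbp2 was at 84.1, 106 and 78.3 FPKM in F1-Control and at 60.9, 83.2 and 81.3 FPKM in F1-HHcy, a log2 fold change of -0.25 (95% interval -0.63 to 0.13). Igfbp3 was at 15.3, 18.2 and 13.9 FPKM in F1-Control and at 7.98, 14.6 and 29.5 FPKM in F1-HHcy. The F1-HHcy libraries spanned the lowest and the highest value of the day, and the log2 fold change of -0.04 had a 95% interval from -0.95 to 0.87.

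At Pd7 Igfbp2, Igfbp3 and Igfbp4 fell together. Igfbp2, a binding protein of epithelia and granulosa cells, was at 80.1, 95.2 and 53.9 FPKM in F1-Control and at 32.8, 38.9 and 28.5 FPKM in F1-HHcy. The highest F1-HHcy library lay under the lowest F1-Control library, and the log2 fold change was -1.14 ± 0.21 (SE, limma adjusted p = 0.0107). Igfbp3, the main IGF carrier of the blood, was at 16.7, 15.6 and 9.68 FPKM in F1-Control and at 6.21, 6.39 and 5.46 FPKM in F1-HHcy, again without overlap, with a log2 fold change of -1.06 ± 0.20 (SE, limma adjusted p = 0.0109). Igfbp4 was at 162, 145 and 94.6 FPKM in F1-Control and at 77.9, 75.6 and 76.7 FPKM in F1-HHcy. The F1-HHcy libraries of Igfbp4 were close to each other (SD 1.14 FPKM) and all under the F1-Control range, with a log2 fold change of -0.76 ± 0.20 (SE, limma adjusted p = 0.0381). Leaving out any one library of the day kept the 3 genes past the criterion, with log2 fold changes from -1.37 to -0.97 for Igfbp2, from -1.29 to -0.93 for Igfbp3 and from -0.98 to -0.60 for Igfbp4. The limma adjusted p of Igfbp4 then ranged from 0.00499 to 0.116 and was above 0.05 for 5 of the 6 libraries left out.

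The promoters of these 3 genes are shown because the genes fell on the same day. The sequences are the 250 bases before the transcription start in RefSeq (GRCm38.p6), on the strand of the gene, with capitals for matches on either strand to the TATA box searched as TATAAA, the GC box searched as GGGCGG, the CAAT box searched as CCAAT and the FOXO core searched as TGTTTAC. Igfbp2 lies at chr1:72824230-72824479 (+), Igfbp3 at chr11:7213924-7214173 (-) and Igfbp4 at chr11:99040994-99041243 (+).
Igfbp2: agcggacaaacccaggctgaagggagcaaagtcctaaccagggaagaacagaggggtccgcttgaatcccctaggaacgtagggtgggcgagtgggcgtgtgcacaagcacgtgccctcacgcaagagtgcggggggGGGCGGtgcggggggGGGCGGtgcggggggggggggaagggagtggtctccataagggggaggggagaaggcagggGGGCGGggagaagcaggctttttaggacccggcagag
Igfbp3: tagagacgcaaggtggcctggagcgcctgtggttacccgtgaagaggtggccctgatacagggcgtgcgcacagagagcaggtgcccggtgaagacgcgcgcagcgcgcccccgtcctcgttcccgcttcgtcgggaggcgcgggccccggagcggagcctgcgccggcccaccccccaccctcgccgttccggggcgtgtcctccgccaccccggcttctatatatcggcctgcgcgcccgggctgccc
Igfbp4: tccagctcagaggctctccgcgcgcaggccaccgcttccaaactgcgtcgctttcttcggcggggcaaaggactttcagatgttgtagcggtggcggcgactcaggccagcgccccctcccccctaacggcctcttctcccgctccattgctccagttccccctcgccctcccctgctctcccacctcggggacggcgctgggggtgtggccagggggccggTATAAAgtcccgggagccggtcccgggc
The Igfbp2 window held 3 GC boxes and the Igfbp4 window 1 TATA box, and the Igfbp3 window held none of the 4 motifs in these letters. Of 32851 RefSeq promoter windows of that length, 32.7% held a GC box, 33.8% a CAAT box, 12.4% a TATA box and 3.17% a FOXO core. The transcription starts used for the Igfbp3 and Igfbp4 windows lie 1575 and 1239 bases inside the outer end of the annotated gene. A promoter was found for 9 of the 10 members, and the 3 windows had no motif of the 4 in common.

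Igfbp2 and Igfbp5 are neighbours on mouse chromosome 1, with 5590 bases between their ends. Igfbp2 spans chr1:72824480-72852474 on the plus strand and Igfbp5 chr1:72858065-72874865 on the minus strand (GRCm38.p6). At Pd7 Igfbp5 did not meet the criterion. It was at 472, 173 and 349 FPKM in F1-Control and at 419, 509 and 246 FPKM in F1-HHcy, a log2 fold change of 0.29 (95% interval -0.54 to 1.13). The ratio of Igfbp5 to Igfbp2 was 5.89, 1.82 and 6.47 in the F1-Control libraries and 12.8, 13.1 and 8.63 in the F1-HHcy libraries, without overlap. At Pd3 the ratio was 2.54 to 3.67 in F1-Control and 4.85 to 7.59 in F1-HHcy, and at Pd21 it was 5.41 to 8.58 and 2.24 to 6.85, with overlap.

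Igfbp6 and Igfbp7 did not meet the criterion at Pd7. Igfbp6 was at 93.1, 112 and 79.7 FPKM in F1-Control and at 105, 107 and 72.7 FPKM in F1-HHcy, a log2 fold change of -0.0086 (95% interval -0.44 to 0.43). Igfbp7 was at 150, 203 and 195 FPKM in F1-Control and at 247, 228 and 285 FPKM in F1-HHcy. All F1-HHcy libraries of Igfbp7 were higher, by 0.47 on the log2 scale (95% interval 0.07 to 0.87, limma adjusted p = 0.108).

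Markers of several cell types moved with the 3 genes that fell. The summed FPKM of 9 surface epithelium markers (among them Upk3b, Krt19 and Msln) was 769, 886 and 525 in F1-Control Pd7 and 338, 444 and 232 in F1-HHcy Pd7. These sums did not overlap, and 5 of the 9 markers met the criterion in the lower direction. Within F1-Control Pd7, replicate 3 had the lowest marker sum and also the lowest Igfbp2, Igfbp3 and Igfbp4. Within F1-HHcy Pd7, replicate 3 had the lowest sum, Igfbp2 and Igfbp3, but Igfbp4 was lowest in replicate 2, which had the highest sum. At Pd3, F1-HHcy replicate 3 had the lowest sum of the day (453) and the highest Igfbp3 (29.5 FPKM). The sum of 14 oocyte markers was also lower without overlap, at 1920 to 2995 FPKM in F1-Control and 1181 to 1655 FPKM in F1-HHcy. Of the 14, 10 were lower by the criterion and 8 by adjusted p, while 2 were higher by the criterion and 2 by adjusted p. The sum of 8 macrophage markers was 45.5 to 67.3 and 37.7 to 44.8 FPKM, with 2 lower by the criterion. The sum of 8 erythroid markers was 925 to 5795 FPKM in F1-Control and 287 to 502 FPKM in F1-HHcy, also without overlap. Markers of theca cells went the other way, with sums of 234 to 472 FPKM in F1-Control and 1181 to 1236 FPKM in F1-HHcy. All 8 rose, but Cyp17a1, one of them, passed the filter on low values only with the F1-HHcy libraries. It was at 0.837, 0.599 and 9.03 FPKM in F1-Control and at 64.3 to 175 FPKM in F1-HHcy. The count of theca markers is therefore a description. Of 12 granulosa markers 7 were higher by the criterion, 3 of them by adjusted p, but their sums overlapped. Sums of endothelium markers (98.1 to 113 against 114 to 129 FPKM) and adipocyte markers (4.86 to 16.3 against 16.5 to 25.6 FPKM) were higher in F1-HHcy without overlap. The part of these cell types in the Igfbp values was not tested.

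**Figure D4:**
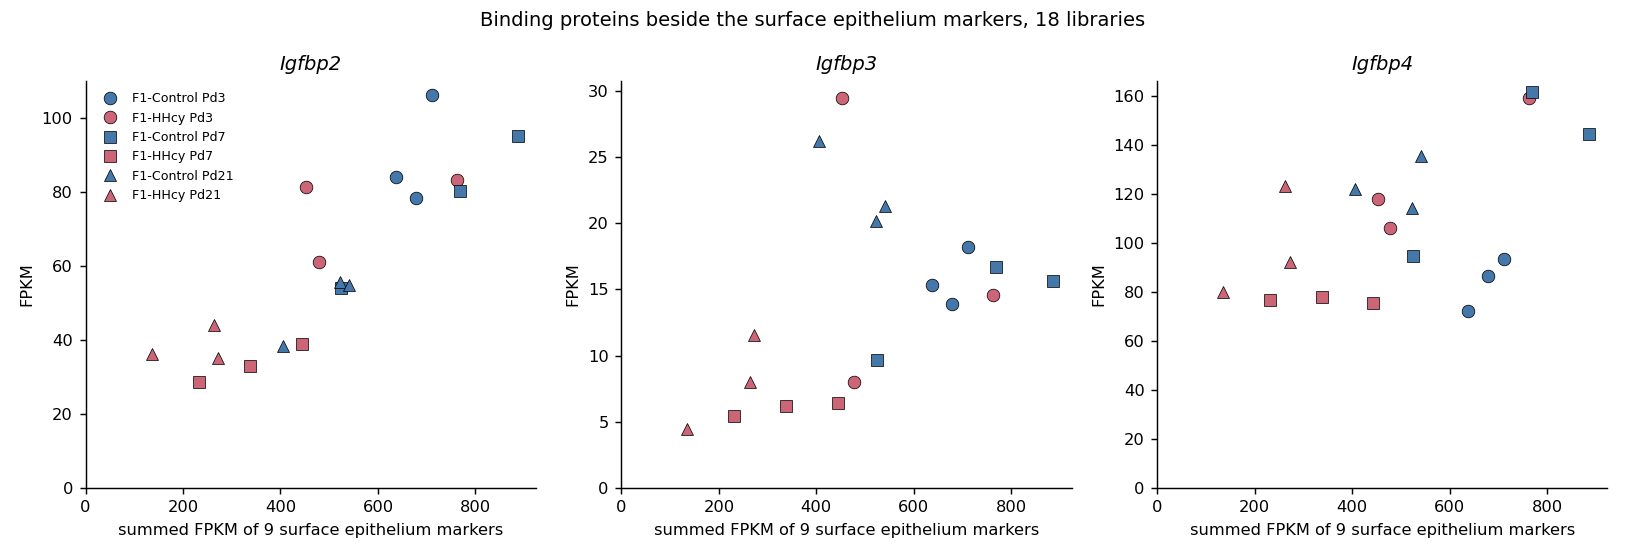
Igfbp2, Igfbp3 and Igfbp4 (FPKM, vertical axes from 0) against the summed FPKM of 9 surface epithelium markers (horizontal axes from 0) in the 18 libraries, with colour for diet and symbol for day. The F1-HHcy Pd7 libraries (red squares) lie at marker sums of 232 to 444 and Igfbp2 levels of 28.5 to 38.9 FPKM, and the F1-Control Pd7 libraries (blue squares) at 525 to 886 and 53.9 to 95.2 FPKM.

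At Pd21 Igfbp3 was the member with the largest difference. It was at 20.2, 26.2 and 21.3 FPKM in F1-Control and at 7.97, 4.41 and 11.5 FPKM in F1-HHcy. The groups were apart, and the log2 fold change was -1.47 ± 0.29 (SE, limma adjusted p = 0.0390). Without any one library it stayed between -1.75 and -1.14 and met the criterion, with a limma adjusted p of 0.0267 without F1-HHcy replicate 3 and of 0.0545 to 0.383 without any other. Markers of oviduct epithelium were high in F1-Control only, with sums of 8 ciliated cell markers of 266, 75.8 and 143 FPKM and sums of 3 secretory cell markers of 224, 40.8 and 378 FPKM. In F1-HHcy these sums were 9.21 to 14.3 and 1.13 to 2.77 FPKM. Every F1-Control library thus held more oviduct RNA than every F1-HHcy library, so oviduct RNA and diet cannot be told apart at Pd21. The surface epithelium sums were 406 to 542 FPKM in F1-Control and 136 to 272 FPKM in F1-HHcy. The part of oviduct and surface epithelium in the Igfbp3 difference was not tested.

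Igfbp6 at Pd21 was at 134, 162 and 164 FPKM in F1-Control and at 101, 68.4 and 121 FPKM in F1-HHcy. The groups did not overlap, and the log2 fold change of -0.69 (limma adjusted p = 0.306) became -0.47 without F1-HHcy replicate 2 and then missed the criterion. Igfbp5 was at 301, 218 and 471 FPKM in F1-Control and at 301, 81.1 and 184 FPKM in F1-HHcy, with a log2 fold change of -0.92 and a 95% interval from -1.98 to 0.14. The spread of Igfbp5 within both diets was wide and the groups overlapped. Igfbp2, with a log2 fold change of -0.35 (95% interval -0.77 to 0.07), and Igfbp4, with -0.35 (95% interval -0.77 to 0.07), also overlapped between the diets. Igfbp7 was the most even member, at 311, 368 and 302 FPKM in F1-Control and 351, 310.1 and 319 FPKM in F1-HHcy, a log2 fold change of 0.0018 (95% interval -0.38 to 0.38).

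Between Pd3 and Pd7, which share a batch, 4 members were called higher in F1-Control and none lower. Igfbp7 rose from 63.7 ± 9.25 to 183 ± 28.3 FPKM (log2 fold change 1.50, limma adjusted p = 0.000451), Igfbp6 from 37.9 ± 3.30 to 94.8 ± 16.1 FPKM (1.29, limma adjusted p = 0.00414) and Igfbp4 from 84.0 ± 10.8 to 134 ± 34.8 FPKM (0.64, limma adjusted p = 0.0485), with SD over n = 3 libraries. Igf1 met the criterion with a log2 difference of 0.64 (limma adjusted p = 0.150). The criterion was met by 13.7% of the 14607 genes tested, 6.76% in the higher and 6.89% in the lower direction, and 11.4% had an adjusted p under 0.05, as had 3 members. The days were apart for 4 members and for 38.2% of all genes. The replicate number was also fitted as a block, although the data do not show that it pairs libraries, as given with the processing. With it 4 members again met the criterion, but Igfbp4 no longer had an adjusted p under 0.05 (limma adjusted p = 0.0624). In a fit of the 6 F1-Control libraries of these days alone, the limma adjusted p of Igfbp4 was 0.0690, and with the block it was 0.0298 for Igfbp4 and 0.00663 for Igf1. Igfbp4 missed the criterion without F1-Control Pd3 replicate 1 (0.53), F1-Control Pd7 replicate 1 (0.48) or F1-Control Pd7 replicate 2 (0.56). Igf1 missed it without any F1-Control library of these days other than Pd7 replicate 2. The stroma marker sum was 843 to 1134 FPKM in F1-Control Pd3 and 1786 to 2119 FPKM in F1-Control Pd7. Sums of smooth muscle markers (106 to 153 against 376 to 664 FPKM) and oocyte markers (1133 to 1344 against 1920 to 2995 FPKM) were also higher at Pd7 without overlap. So were those of theca, granulosa, endothelium, macrophage and adipocyte markers. The erythroid sums overlapped, with 8 of 8 markers lower by the criterion. The part of these cell types was not tested.

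In F1-HHcy, Igfbp2 and Igfbp4 were lower at Pd7 than at Pd3 and Igfbp7 was higher. Igfbp2 fell from 75.1 ± 12.3 to 33.4 ± 5.22 FPKM (log2 fold change -1.14, limma adjusted p = 0.0124) and Igfbp4 from 128 ± 27.9 to 76.7 ± 1.14 FPKM (-0.70, limma adjusted p = 0.0485), while Igfbp7 rose from 154 ± 47.3 to 253 ± 29.4 FPKM (0.76, limma adjusted p = 0.0382). Igfbp3 met the criterion with -1.21 and narrowly missed an adjusted p under 0.05 in limma, and the difference was -0.76 without F1-HHcy Pd3 replicate 3. The criterion was met by 4 of the 10 members (1 higher, 3 lower) and by 11.8% of the 14607 genes tested (5.76% higher, 6.03% lower). An adjusted p under 0.05 was reached by 3 members and 5.48% of all genes, and the days were apart for 6 members and 30.7% of all genes. Igfbp7 did not meet it without F1-HHcy Pd3 replicate 3 (0.50), and Igfbp4 did not without F1-HHcy Pd3 replicate 2 (-0.54). In a fit of these 6 libraries alone no member had a limma adjusted p under 0.05, with 0.0892 for Igfbp2, 0.0969 for Igfbp4 and 0.136 for Igfbp7, and with the replicate block added they were 0.125, 0.125 and 0.166. The surface epithelium marker sum was 453 to 762 FPKM at Pd3 and 232 to 444 FPKM at Pd7 in F1-HHcy (4 of 9 markers lower by the criterion). Of 14 oocyte markers 8 were lower by the criterion, 5 by adjusted p, and 2 were higher, 1 by adjusted p. The theca marker sum was 89.4 to 719 and 1181 to 1236 FPKM, with 6 of 8 markers higher. The part of these cell types was not tested. These libraries are the same as those used for the diet comparisons, so the age and diet differences are not independent.

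Whether the diet effect itself changed from day to day was tested by interaction terms over all 18 libraries. For Igfbp4 the diet effect was 0.58 at Pd3 and -0.76 at Pd7, and the difference of -1.34 ± 0.28 (SE) passed with limma adjusted p = 0.0467. It did not pass without the filter, with the replicate block, with limma-voom on fragments or with only the groups compared (limma adjusted p from 0.0535 to 0.0878). In the model of all 18 libraries it was the only member to pass, against 0.411% of the 14607 genes tested. For Igfbp2 the difference was -0.89 (limma adjusted p = 0.203), for Igfbp3 -1.02 (limma adjusted p = 0.365) and for Igf1 -0.84 (limma adjusted p = 0.370). Between Pd7 and Pd21 no member passed at an adjusted p under 0.05 with limma or limma-voom, against 3.89% of all genes with limma. An unadjusted p under 0.05 was reached by 2 of 10 members and by 19.4% of all genes, a share near that of the members. The largest of these differences with an unadjusted p under 0.05 was that of Igf1r, from 0.95 at Pd7 to -0.11 at Pd21 (difference -1.06, limma adjusted p = 0.0635), and here age and batch cannot be told apart.

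The make-up of the binding protein transcripts shifted with day and diet. The summed FPKM of the 6 Igfbp genes was 550.1 to 602 in F1-Control Pd3 and 773 to 952 in F1-HHcy Pd3, without overlap, and the ranges overlapped at Pd7 (743 to 973 against 714 to 964) but not at Pd21 (935 to 1148 against 580.1 to 928). Igfbp2 made up 13.8% to 17.6% of the sum in F1-Control Pd3 and 6.57% to 10.5% in F1-HHcy Pd3. At Pd7 its share was 6.90% to 12.8% in F1-Control and 3.69% to 4.03% in F1-HHcy, and at Pd21 the shares overlapped at 4.10% to 5.95% and 4.59% to 6.24%. Igfbp7 made up 9.90% to 12.1% in F1-Control Pd3 and 13.5% to 21.4% in F1-HHcy Pd3, and 26.3% to 53.5% in the Pd21 libraries. Igfbp5 took 44.8% to 52.5% at Pd3 in both diets together and 14.0% to 41.0% at Pd21. Shares of a sum depend on each other, so they are given as a description.

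**Figure D5:**
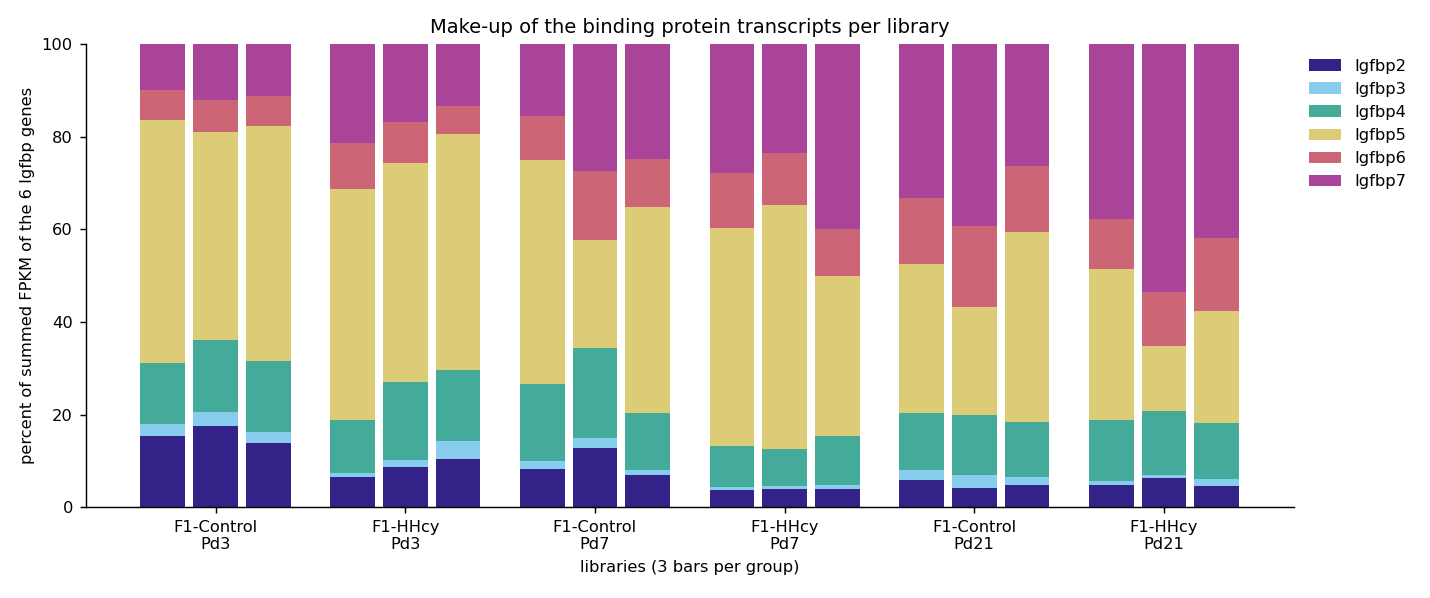
Share of each of the 6 Igfbp genes in their summed FPKM (percent, vertical axis from 0 to 100), with 1 bar per library and 3 libraries per group of diet and day. The Igfbp2 share is 13.8% to 17.6% in F1-Control Pd3 and 3.69% to 4.03% in F1-HHcy Pd7, and the Igfbp7 share is 9.90% to 12.1% in F1-Control Pd3 and 37.8% to 53.5% in F1-HHcy Pd21.

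Other genes of the pathway, from 6 lists of ligands, receptors, binding protein partners, adaptors, PI3K-AKT genes and mRNA-binding proteins, were called beside the members. Of 54 listed genes 53 were in the tables. At Pd3, 39 were tested and 8 met the criterion, 7 of them higher, and at Pd7 11 of 41 met it, 9 of them higher. At Pd21 it was met by 2 of 41, both lower. The background shares are those given for each day above.

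At Pd3 the pathway genes with the smallest p were Lrp1, Htra1 and Pik3cd. Lrp1, a large endocytic receptor, rose from 18.7 ± 4.05 to 35.1 ± 1.92 FPKM (log2 fold change 0.89, limma adjusted p = 0.0320, n = 3). Htra1, a secreted protease, was at 62.1, 66.8 and 72.3 FPKM in F1-Control and at 112, 134 and 88.6 FPKM in F1-HHcy (0.71, limma adjusted p = 0.0596), and Pik3cd, a catalytic subunit of PI3K, differed by 0.77 (limma adjusted p = 0.0638). At Pd7 the genes with the smallest p were Prlr, Irs1 and Igf2. Prlr, the prolactin receptor, averaged 0.861 ± 0.641 FPKM in F1-Control and 4.59 ± 0.246 FPKM in F1-HHcy (1.64, limma adjusted p = 0.00360). Its F1-Control libraries were at 0.553, 0.431 and 1.60 FPKM, so it passed the filter only with the F1-HHcy libraries. Its p-value is therefore given as a description, and at Pd3 Prlr did not pass the filter. Irs1, the adaptor related to Irs2, was at 7.28, 5.87 and 8.51 FPKM in F1-Control and at 15.6, 14.8 and 16.6 FPKM in F1-HHcy, all higher (1.03, limma adjusted p = 0.00582).

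Igf2, the fetal growth factor of the family, fell at Pd7. It was at 34.7, 27.8 and 17.9 FPKM in F1-Control and at 9.57, 10.1 and 7.07 FPKM in F1-HHcy, without overlap (log2 fold change -1.46, limma adjusted p = 0.00658). At Pd3 it was at 74.0 to 75.9 FPKM in F1-Control and at 13.8, 29.6 and 85.3 FPKM in F1-HHcy, where replicate 3 alone reached the F1-Control level. At Pd21 Igf2 met the criterion in the lower direction from 8.46 to 15.0 FPKM in F1-Control and 3.38 to 5.94 FPKM in F1-HHcy (log2 fold change -1.03, limma adjusted p = 0.110) and so did Stc2, a stanniocalcin that inhibits PAPP-A (-1.23, limma adjusted p = 0.164).

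Profiles most like those of Igf1, Igfbp7 and Igfbp3 were sought over the 18 libraries among 14607 genes, by the smallest root mean square difference of centred log2(FPKM + 1). Igfbp7 and Igfbp3 were taken because their group means varied most (SD of the 6 group means 0.89 and 0.66 on the log2 scale). Nearest to Igf1 were Chrdl1, Ldha and Tmed3, with differences of 0.22, 0.23 and 0.24, where Igf1 itself varied by 0.45 around its mean. The genes nearest to Igfbp7 were Steap4, Trim60 and Kcnip3, with 0.24 each against 0.84 for Igfbp7 itself. For Igfbp3 they were Ccdc181, Hspb1 and Retreg1, with 0.37, 0.39 and 0.40 against 0.72. These libraries share depth, batch and composition, and the likeness is a description.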

How the data were processed

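Poly-A RNA of whole ovaries was sequenced in 18 libraries (3 for each diet and day). The authors deposited one FPKM value per gene and library; the submitters' processing notes name FastQC 0.11.9, Trimmomatic 0.39, STAR 2.7.9a, featureCounts 2.0.1, DESeq2 1.36.0 and GRCm38/mm10. The unit was read from the values: fragments per library and gene were whole numbers within 0.002 for 27278 of 27294 genes (99.941%), which gave 33630641 to 39399281 fragments per library, so counting error is small for the members. These fragments served only for the limma-voom alternative, which by the criterion called 839 genes higher and 820 lower at Pd3 (664 and 629 on FPKM), 1580 and 1212 at Pd7 (1205 and 978) and 10 and 766 at Pd21 (11 and 675).

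Groups were taken from the labels. limma 3.58.1 (R 4.3.3, trended empirical Bayes) was run on log2(FPKM + 1), which understates changes of low genes, over genes that reached 1 FPKM in 3 or more of the fitted libraries. The diets were compared within the 6 libraries of a day, and Pd7 with Pd3 and the differences of diet effects in a model of all 18. P-values were adjusted over all genes tested (Benjamini-Hochberg), intervals are 95%, and interactions were called at an adjusted p under 0.05. The scripts were tested on simulated data. Tables were made in Python 3.11.15 (pandas 2.3.3, numpy 2.4.6) and figures in matplotlib 3.10.9.

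All 10 members are named, and of 6 further pathway lists the 3 genes with the smallest p among those called on a day. Profiles were matched for Igf1 and for the 2 other members with the most variable group means, and marker lists are given as summed FPKM. Members and lists were chosen with earlier results of these data known. Alternatives were a pseudocount of 0.1, no filter, a replicate block, median-ratio scaling, limma-voom, other choices of libraries and leaving out each library. Deviations of same-numbered libraries from their group means correlated at 0.134, 0.262 and 0.292 between F1-Control Pd3 and Pd7. The block rests on these correlations alone, as no label gives a shared litter or day. In the other pairs of groups compared at least 1 correlation of same-numbered libraries was under 0.1. Differently numbered libraries of F1-HHcy and F1-Control Pd21 reached similar values, 0.218, 0.162 and 0.309 (replicates 1 with 3, 2 with 1 and 3 with 2). The correlations therefore cannot show that the numbers pair libraries.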

Additional observations from a re-analysis of the deposited data

Results flagged for a closer look

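The diet effect on Igfbp4 differed between Pd3 and Pd7 by -1.34 on the log2 scale in the test of the difference itself (limma adjusted p = 0.0467, 95% interval -1.94 to -0.75). Igfbp4 averaged 84.0 ± 10.8 FPKM in F1-Control Pd3 and 128 ± 27.9 FPKM in F1-HHcy Pd3, and 134 ± 34.8 and 76.7 ± 1.14 FPKM in the respective Pd7 groups (SD, n = 3). The difference of the effects was -1.57 to -1.17 when 1 library was left out, with limma adjusted p-values from 0.0204 to 0.170. In most of these fits no member, Igfbp4 included, had an adjusted p under 0.05.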

How the results depend on the processing

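Apart from leaving out a library, 428 of 440 values kept their direction and their side of the threshold, 6 fell short of it, 6 newly passed it and 0 changed direction. By adjusted p in place of the criterion, 2 members were called at Pd3 and 1 at Pd21. For the difference of the diet effect between Pd7 and Pd3, 0 members passed without the filter, with the replicate block, with limma-voom or with only the groups compared, where the limma adjusted p of Igfbp4 was 0.0878, 0.0743, 0.0535 and 0.0555. By unadjusted p in place of adjusted p, with the settings of the report, 5 of 10 members and 13.8% of all genes were called. Between Pd21 and Pd7, 1 member (Igf1r) passed with the replicate block (limma adjusted p = 0.0466) and 1 with median-ratio scaling (Igf1r, limma adjusted p = 0.0487), and by unadjusted p with the settings of the report 2 of 10 members and 19.4% of all genes were called. The cause was not tested. With the block at Pd3, where same-numbered libraries did not deviate together, the limma adjusted p was 0.109 for Igfbp5 and 0.119 for Igfbp7. The alternative of 6 libraries with the block for Pd7 against Pd3 was chosen after seeing the data.

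Leaving out 1 library at a time gave 1 to 3 members called at Pd21, 2 to 4 between Pd7 and Pd3 in F1-Control, 0 to 3 for the difference between Pd7 and Pd3 and 0 to 2 for that between Pd21 and Pd7. The 3 were found without F1-HHcy Pd3 replicate 3, where that difference passed upward for 50 and downward for 214 of 14541 genes. Small log2 differences changed sign at Pd3 for Igfbp3 (-0.50 to 0.38) and Irs2 (-0.076 to 0.64), and at Pd7 for Igfbp5 (-0.12 to 0.61) and Igfbp6 (-0.13 to 0.17). At Pd21 they did so for Igf1 (-0.43 to 0.33), Igf1r (-0.27 to 0.045), Igfbp7 (-0.053 to 0.090), Insr (-0.22 to 0.17) and Irs2 (-0.074 to 0.31). Between Pd7 and Pd3 they did so in F1-Control for Igf1r (-0.33 to 0.19), Igfbp3 (-0.33 to 0.039), Igfbp5 (-0.20 to 0.52) and Insr (-0.15 to 0.33), and in F1-HHcy for Igfbp5 (-0.44 to 0.088) and Irs2 (-0.42 to 0.30). The difference of diet effects changed sign for Irs2 between Pd7 and Pd3 (-0.16 to 0.55) and for Igf1 between Pd21 and Pd7 (-0.064 to 0.70).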
